A study of Mus musculus with 4 samples.

Results

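The chromatin around 10 genes of CXC chemokine and inflammatory cytokine signalling was examined by ATAC-seq in mouse chondrocytes: Cxcl1, Cxcl2, Cxcl5, Cxcl12, Il6, Lif, Il1rl1, Ptgs2, Nfkbia and Csf1. In ATAC-seq a transposase inserts adapters where DNA is accessible, so a peak marks a stretch of open chromatin. Every peak in or within 50 kb of these genes was taken, and peaks that overlapped between libraries were joined to sites, which gave 148 sites of 170558 in the genome. Of the genome-wide sites, 140212 lay in or within 50 kb of a protein-coding gene and served as the background for counts of sites. The cells came from knee cartilage of newborn C57BL/6 mice. The P0 group (2 libraries) held primary cells kept in culture for less than a day, and the P8 group (2 libraries) held cells of passage 8, replated each time their number had doubled, a culture model of chondrocyte dedifferentiation. No sample carried an added cytokine or other treatment according to the labels. Whether the 2 libraries of a passage came from separate animals or cultures is not stated, so p-values here measure only the spread between these libraries. In the tests of sites, that spread was estimated in part from all tested sites.

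CXC chemokines are small secreted proteins that act on G protein-coupled receptors. Cxcl1, Cxcl2 and Cxcl5 attract neutrophils through Cxcr2, whereas Cxcl12 acts on Cxcr4 and retains stem and progenitor cells. Il6 and Lif signal through receptors that share the Il6st (gp130) chain. Il1rl1 (ST2) is the receptor of Il33, Ptgs2 (COX-2) makes the precursor of inflammatory prostaglandins, and Csf1 keeps macrophages alive. Many of these genes are induced by NF-kappaB, and Nfkbia encodes its inhibitor IkappaB-alpha, which NF-kappaB itself induces. In cartilage, such mediators are known for driving matrix breakdown when chondrocytes meet interleukin-1 or tumour necrosis factor.

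The P0 libraries were deeper than the P8 libraries. The peak caller's genome-wide background, which scales with depth, amounted to 194 tags per 10 kb at P0 for library A, 162 for B, then at P8 140 for A, 134 for B. Pairs of values below are given in this order, A then B. The main chromosomes held 144356 and 118849 peaks at P0 and 88578 and 98647 at P8. Where the local background was lowest, the weakest peak called had a fold enrichment (summit pileup over local background) of 2.90 and 3.20 at P0 and of 3.46 and 3.54 at P8, so there a weaker opening could be called at P0 than at P8. Passage and depth cannot be told apart in these libraries. For the marker genes, a peak at the start lay near an annotated start or, where none was matched, near either end of the gene. The share of all genes with such a peak was not counted. Of 8 chondrocyte marker genes, 8 had a peak at the start in each P0 library and 7 in each P8 library. Of 5 fibroblast markers, all 5 did at P0, compared with 4 and 3 at P8. Of 7 macrophage and leukocyte markers, 3 and 3 had one at P0 and 2 and 2 at P8. Such a peak was present in every library at Spi1 and Lyz2 and in both P0 libraries alone at Cd68. No library had one at Ptprc, Csf1r, Adgre1 or Itgam. Of 5 endothelial markers, 2 had one in each library, Kdr and Tek, with none at Pecam1, Cdh5 or Emcn.

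RefSeq promoters (GRCm38.p6) were matched for 9 of the 10 genes, and 7 are printed here over the 250 bases before the transcription start site (TSS). Cxcl1, Cxcl2, Il6, Nfkbia and Csf1 are shown since each held an NF-kappaB match inside the TSS peak of at least 1 library. Lif is shown since the peaks beside its TSS were found at P8 only, and Ptgs2 since its promoter was open in every library without an NF-kappaB match. Capitals mark matches to the motifs named after the sequences. The stretches are chr5:90890995-90891244 (Cxcl1, plus strand), chr5:90903649-90903898 (Cxcl2, plus), chr5:30012864-30013113 (Il6, plus), chr12:55492648-55492897 (Nfkbia, minus), chr3:107760470-107760719 (Csf1, minus), chr11:4257318-4257567 (Lif, plus) and chr1:150099781-150100030 (Ptgs2, plus), each written 5′ to 3′ on the gene's strand.
Cxcl1: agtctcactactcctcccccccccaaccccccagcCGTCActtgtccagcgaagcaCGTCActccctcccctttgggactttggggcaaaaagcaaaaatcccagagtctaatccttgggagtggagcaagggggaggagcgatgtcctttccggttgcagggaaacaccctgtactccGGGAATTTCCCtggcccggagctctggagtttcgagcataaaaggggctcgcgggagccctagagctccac
Cxcl2: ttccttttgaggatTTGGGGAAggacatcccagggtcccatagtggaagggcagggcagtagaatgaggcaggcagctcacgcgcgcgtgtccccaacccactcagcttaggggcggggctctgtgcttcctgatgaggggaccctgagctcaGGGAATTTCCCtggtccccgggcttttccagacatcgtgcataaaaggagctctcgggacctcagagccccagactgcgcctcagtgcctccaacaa
Il6: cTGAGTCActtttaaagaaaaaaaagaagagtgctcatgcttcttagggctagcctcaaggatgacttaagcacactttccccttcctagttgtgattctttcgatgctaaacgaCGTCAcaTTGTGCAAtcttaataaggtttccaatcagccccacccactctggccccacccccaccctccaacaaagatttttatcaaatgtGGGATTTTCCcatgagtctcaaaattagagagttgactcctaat
Nfkbia: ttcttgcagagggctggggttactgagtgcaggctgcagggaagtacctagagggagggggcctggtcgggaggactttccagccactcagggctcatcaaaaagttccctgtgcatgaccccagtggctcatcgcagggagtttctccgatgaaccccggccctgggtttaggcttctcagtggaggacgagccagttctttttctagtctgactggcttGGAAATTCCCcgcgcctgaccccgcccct
Csf1: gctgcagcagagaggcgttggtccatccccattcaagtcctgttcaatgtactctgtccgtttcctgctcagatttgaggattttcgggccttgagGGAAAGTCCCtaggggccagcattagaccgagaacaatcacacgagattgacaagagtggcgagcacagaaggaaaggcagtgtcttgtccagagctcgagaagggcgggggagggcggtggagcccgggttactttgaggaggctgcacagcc
Lif: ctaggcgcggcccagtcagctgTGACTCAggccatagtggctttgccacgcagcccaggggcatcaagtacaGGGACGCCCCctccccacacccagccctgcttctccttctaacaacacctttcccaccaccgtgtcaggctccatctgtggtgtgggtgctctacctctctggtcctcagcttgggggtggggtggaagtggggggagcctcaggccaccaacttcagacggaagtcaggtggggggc
Ptgs2: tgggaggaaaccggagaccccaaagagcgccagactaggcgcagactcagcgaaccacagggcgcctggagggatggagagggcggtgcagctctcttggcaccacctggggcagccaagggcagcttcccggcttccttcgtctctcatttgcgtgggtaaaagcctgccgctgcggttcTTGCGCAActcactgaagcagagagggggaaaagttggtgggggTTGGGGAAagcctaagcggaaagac

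Motifs were searched on both strands over 300 bases, from 250 before to 50 after the TSS, in 10 promoters of the 9 genes (Il1rl1 has 2) and in all 32851 promoters of the table. An NF-kappaB consensus match was found in 6 of the 10 promoters, against 8.46% of all promoters. With the TSS as position 0, the matches began at position -71 in Cxcl1, -97 in Cxcl2, -44 in Il6, -178 in Lif, -29 in Nfkbia and -154 in Csf1. In Cxcl1 and Cxcl2 the same stretch, GGGAATTTCCC, held 2 overlapping matches. The AP-1 motif TGANTCA was found in 2 of the 10, at -249 in Il6 and -228 in Lif, against 7.81% of all promoters. The cAMP response element core TGACG was found in 5 of 10 (20.8% of all) and the C/EBP motif TTNNGNAA in 5 of 10 (40.7%). The TATA box string TATAAA was found in 1 of 10 (13.6%), in Nfkbia. That match lay on the opposite strand and after the TSS, from position 19, outside the printed bases. The serum response CArG box was found in 0 of 10 (1.63%). A match is a string of letters and not an observed binding site.

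Around the 10 genes, sites open in every library outnumbered those open in both libraries of 1 passage and in neither of the other. A peak in all 4 libraries was found at 54 of 148 sites (36.5%; 34.5% of the background sites). A further 24 sites (16.2%) were open in both libraries at P0 and in neither at P8, against 16.7% of the background sites, and 4 sites (2.70%) were open in both at P8 and in neither at P0, against 1.60%. Counting only peaks that would pass at the lowest depth, these were 22 and 4. The shares at the listed genes were thus near those of other genes. Of the remaining 66 sites, 43 had a peak in 1 library, 22 of them in P0 library A, the deepest. Cxcl1 and Cxcl2 lie side by side, and 16 sites counted for both. At the edge of the window, the farthest site inside lay 49.9 kb from Il1rl1, with fold enrichments of 8.28 and 4.58 at P0, 5.56 in library B at P8 and no peak in library A, and the nearest site outside lay 50.3 kb from Csf1, with 6.54 and 6.07 at P0 and 6.92 and 6.06 at P8.

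**Figure D1:**
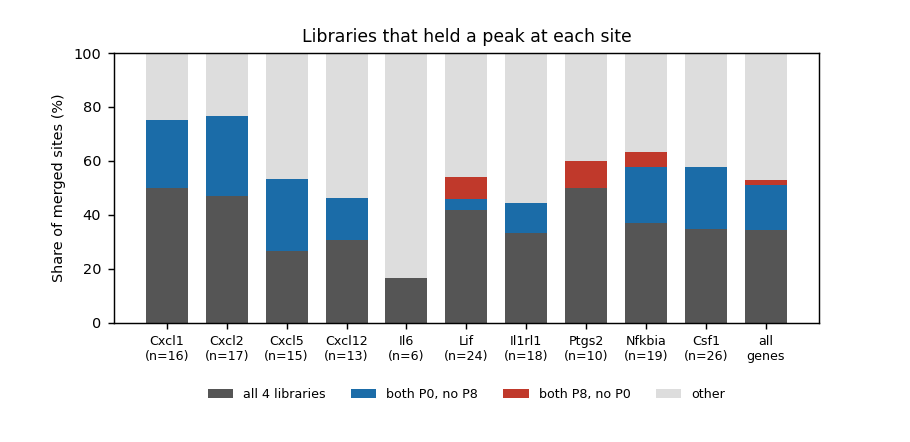
Share of merged sites (%) in or within 50 kb of each gene by the libraries that held a peak, with the number of sites under each gene, and the same for all sites near protein-coding genes in the bar at the right. Sites open at P8 alone, in both libraries, are present at Lif (2), Ptgs2 (1) and Nfkbia (1), and sites with the P0 pattern are absent at Il6 and Ptgs2.

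The number of peaks within 50 kb was higher in both P0 libraries than in both P8 libraries for 5 of the 10 genes (Cxcl1, Cxcl2, Cxcl5, Il1rl1 and Csf1), and for 44.9% of all protein-coding genes. No listed gene had more peaks in both P8 libraries, against 3.67% of all genes. Over the 4 libraries together Csf1 had the most peaks, with 21 and 19 at P0 and 13 and 15 at P8, and Il6 the fewest, with 5 and 2 at P0 and 3 and 4 at P8. An exact permutation test (two-sided) of 2 libraries against 2 cannot go below p = 0.333, so no gene could pass it. Per 100000 peaks of the library, only Cxcl5 stayed higher at P0 (10.4 and 9.26, against 5.64 and 9.12 at P8), and Ptgs2 was then higher at P8 (6.23 and 5.05 at P0, 11.3 and 9.12 at P8). The share of all genes with either order on this scale was not counted, so these 2 genes have no background to be read against. The peaks at the 148 sites made up 0.0866% and 0.0875% of all peaks in the P0 libraries and 0.0892% and 0.0963% in the P8 libraries.

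**Figure D2:**
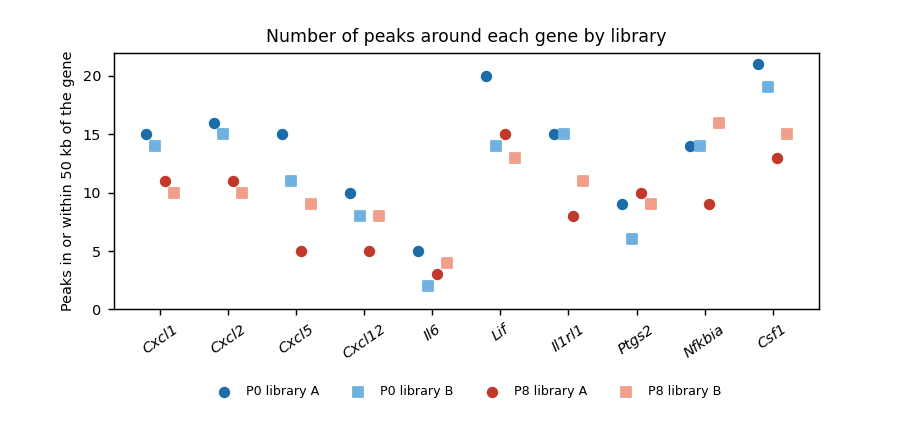
Number of peaks in or within 50 kb of each gene in each library (circles, library A; squares, library B; blue, P0; red, P8). Both P0 points lie above both P8 points for Cxcl1, Cxcl2, Cxcl5, Il1rl1 and Csf1, and the passages overlap for the other 5 genes.

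At the start of the genes, 8 of the 10 had a peak over a TSS in all 4 libraries. The share of all promoters with such a peak was not counted, so this number has no background to be read against. None of these 8 sites passed the limma test between passages (smallest adjusted p, 0.134). The Il6 start had the highest fold enrichment of the 8 at P0, 12.4 and 12.5, and 7.44 and 8.01 at P8. The passages did not overlap there. After centring on the median of all fitted sites, the log2 difference of P8 minus P0 was -0.42 ± 0.17 (adjusted p = 0.134 by limma, n = 2 against 2). The value after ± is limma's moderated SE, which draws each site's variance toward that of all fitted sites. Only without centring was the Il6 start called lower (-0.69, adjusted p = 0.033). The Ptgs2 start stood at 9.61 and 9.26 at P0 and at 5.97 and 7.02 at P8, again without overlap, with a centred difference of -0.27 ± 0.17 (adjusted p = 0.330 by limma), which turned to 0.38 when summit pileup over library background was compared instead (adjusted p = 0.155). The Nfkbia start had 7.79 and 8.36 at P0 and 7.25 and 6.64 at P8, without overlap, and was nearly level only after centring (centred difference 0.05 ± 0.18, adjusted p = 0.883).

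The chemokine and Csf1 starts also had peaks in every library. Fold enrichment at Cxcl1 reached 10.1 and 8.73 at P0, compared with 7.02 and 8.37 at P8. At Cxcl2 it was 5.33 and 7.10 against 6.04 and 4.96, at Cxcl12 8.56 and 6.59 against 5.28 and 5.80, and at Csf1 7.41 and 8.66 against 5.53 and 7.65. Among these, only at Cxcl1 and Cxcl12 did both P0 values lie above both P8 values. The share of all fitted sites without overlap was not counted, here or for the Il6, Ptgs2 and Nfkbia starts. These values are uncentred, and the mean of the P8 library medians lay 0.27 lower on the log2 scale. After centring, 3 of the 8 start sites lay above 0 and 5 below. The promoter table gives 2 starts for Il1rl1, both inside the annotated gene: the proximal promoter carried a peak in all libraries (7.04 and 4.12 at P0, 4.42 and 5.85 at P8), and the distal one had none in any library.

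**Figure D3:**
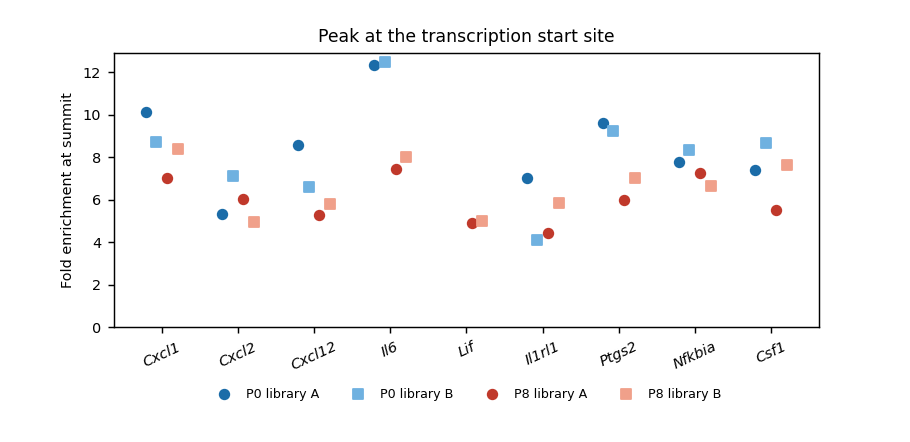
Fold enrichment at the summit of the peak over the TSS in each library (circles, library A; squares, library B; blue, P0; red, P8), with the peak just upstream of the Lif start. Il6 has the highest P0 values (12.4 and 12.5), and Lif has points for P8 alone.

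Lif had no peak over its TSS, and no TSS was matched for Cxcl5. Just upstream of Lif, at chr11:4257220-4257366 and 0.2 kb before the start, both P8 libraries had a peak (4.91 and 4.98) and neither P0 library did. The P8 library A peak reached 49 bases into the promoter printed above, and the P8 library B peak ended before it. Inside the gene, 1.4 kb past the start, the pattern was the opposite: both P0 libraries had a peak (4.62 and 5.47) and neither P8 library did. For Cxcl5 the gene body held a weak peak in both P0 libraries (3.35 and 3.47) and none at P8.

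Sites with a peak in all libraries were tested with limma on log2 fold enrichment over all 55294 such sites, 54 of them at the listed genes. Of these 54, 5 were higher at P8 (9.26%, against 5.87% of all fitted sites) and 2 were lower (3.70%, against 3.29%) at an adjusted p below 0.05. At an unadjusted p below 0.05 the counts were 11 higher and 4 lower, against 16.6% and 9.49% of all fitted sites. The median centred difference over the 54 was 0.08, and 0.07 over all fitted sites. Before centring, the mean of the 2 P8 library medians lay 0.27 below that of the P0 libraries on the log2 scale, and the median difference over all fitted sites was -0.20. Changes are given relative to the library medians, and without centring 2 of the 54 were higher and 5 lower (0.901% and 9.23% of all fitted sites). The 7 called sites are described gene by gene below, and none of them lay over a TSS.

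**Figure D4:**
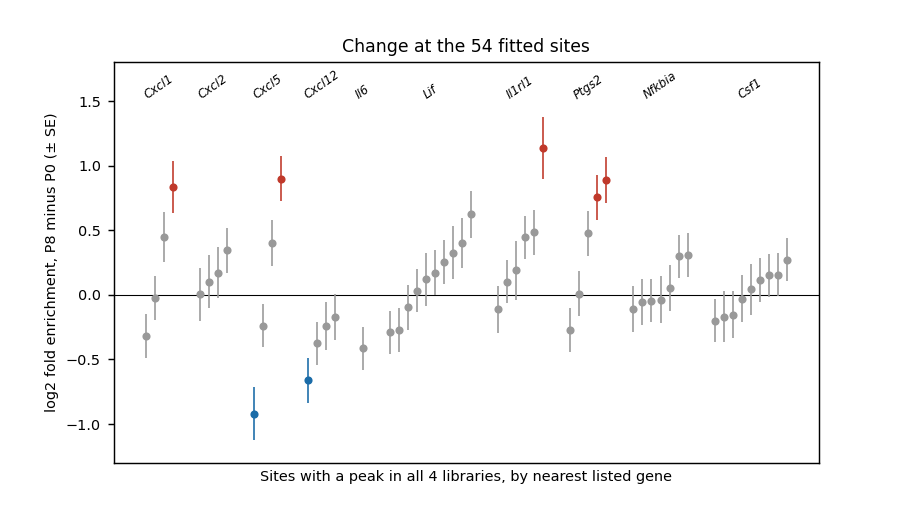
Centred log2 difference in fold enrichment, P8 minus P0, with its moderated SE, at the 54 sites with a peak in all 4 libraries, ordered within the nearest listed gene. Red points were called higher and blue points lower at P8. The called values run from -0.92 (Cxcl5) to 1.14 (Il1rl1), and all 4 Cxcl12 sites lie below 0.

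Around the neutrophil chemoattractants Cxcl1 and Cxcl2, the strongest site lay 14.8 kb before Cxcl1 and was open in every library, with fold enrichments of 15.4 and 15.6 at P0 and 10.0 and 10.6 at P8. It did not pass the test after centring (-0.32 ± 0.17, adjusted p = 0.250 by limma) and was called lower without it (-0.59, adjusted p = 0.049). The site next to it, chr5:90876491-90876859 and 14.4 kb before the start, had 5.48 and 4.12 at P0 and 5.63 and 8.77 at P8. It was called higher at P8 (0.84 ± 0.20, adjusted p = 0.026), although P0 library A and P8 library A were almost equal, and merging it with its stronger neighbour gave -0.33. In the same interval 5 sites were open in both libraries at P0 and in neither at P8. They include one 31.9 kb before Cxcl1 (9.40 and 8.67), one 6.1 kb before it (7.86 and 5.03) and one 0.7 kb before Cxcl2 (6.54 and 6.67). No site here had the reverse pattern.

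Cxcl5 lies in a cluster with Ppbp, Pf4, Cxcl3 and Cxcl15, other CXC chemokine genes. The site with the highest fold enrichment of all 148, chr5:90731368-90731909, lay 27.4 kb outside the gene, with 16.9 and 15.7 at P0 and 8.41 and 6.06 at P8. It was lower at P8 by -0.92 ± 0.21 after centring (adjusted p = 0.019 by limma), with both P0 values above both P8 values by a wide margin. A site 17.4 kb on the other side, chr5:90778983-90779468 and nearest to Pf4 (platelet factor 4), moved the other way, from 5.80 and 5.49 to 9.01 and 8.42 (0.90 ± 0.17, adjusted p = 0.011). The window also held 4 sites with peaks in both P0 libraries alone, the strongest of them nearest to Cxcl3 (6.99 and 8.11). Open chromatin around Cxcl5 thus changed in both directions.

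The 4 fitted sites of Cxcl12 lay within 15.0 kb before the start and over it, with centred differences from -0.66 to -0.17, all below 0. The farthest, chr6:117152880-117153495, had 8.49 and 6.87 at P0 and 3.96 and 4.04 at P8 and was called lower (-0.66 ± 0.18, adjusted p = 0.035 by limma). The site 7.9 kb before the start was the strongest, with 12.0 and 11.5 at P0 and 6.92 and 8.08 at P8, and did not pass (adjusted p = 0.173), but was called lower without centring (-0.65, adjusted p = 0.043) and with summit pileup over library background (-0.60, adjusted p = 0.033). Inside the gene, a site 5.4 kb past the start had peaks in both P0 libraries (10.2 and 7.98) and in library B alone at P8 (7.16).

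**Figure D5:**
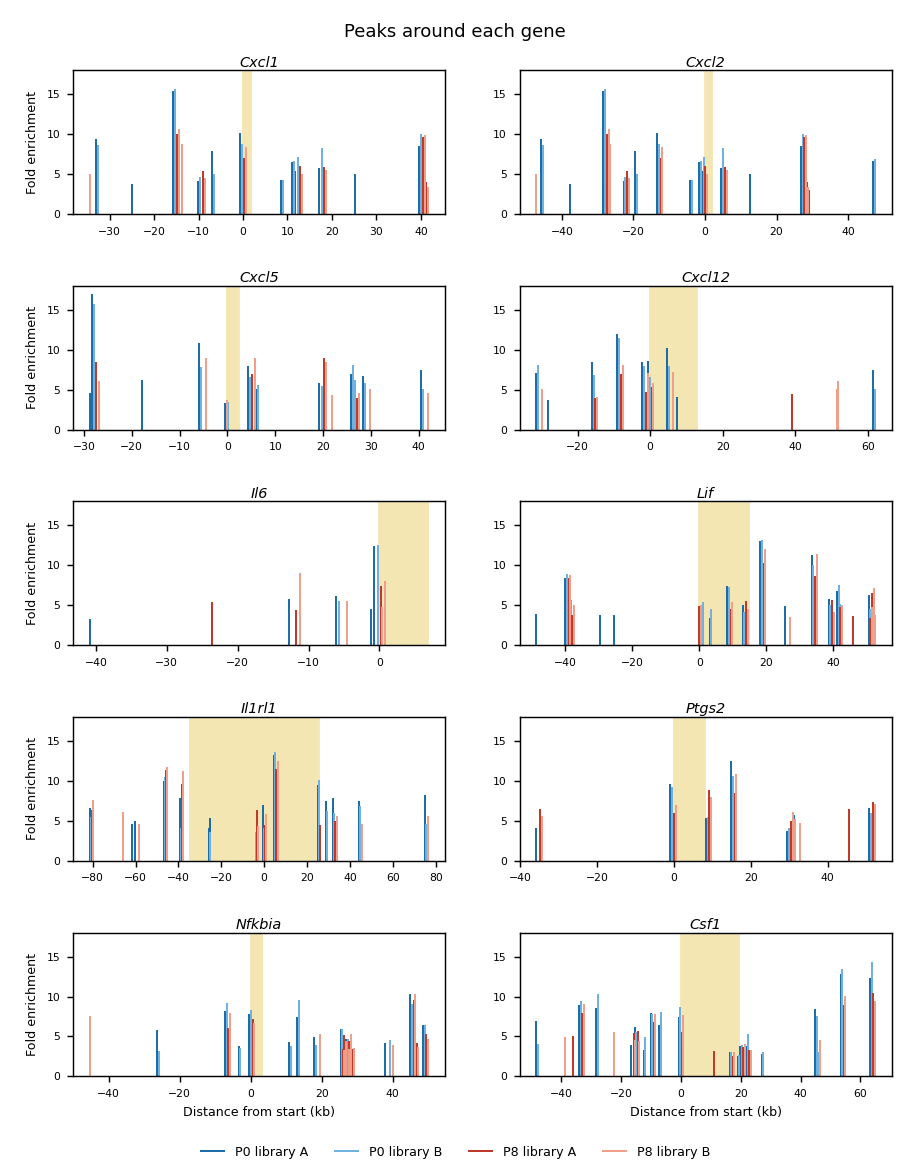
Fold enrichment of the peaks around each gene against the distance from its start in kb (the proximal start for Il1rl1, the lower coordinate for Cxcl5), with the gene shaded and downstream to the right. Lines of the libraries are set slightly apart. The highest line is at Cxcl5 (16.9, P0 library A), and Il6 has the fewest sites (6).

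Il6 had 6 sites, of which the TSS site alone was present in all libraries. The next nearest, 0.4 kb before the start, had a peak in P0 library A (4.53) and P8 library B (4.72). A site 5.3 kb before the start had 6.21 and 5.49 at P0 and 5.56 in P8 library B, and a site 11.9 kb before it had 5.80 in P0 library A and 4.45 and 9.07 at P8. No Il6 site was present in both libraries of one passage and neither of the other.

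Lif had 24 sites, 10 of them fitted and none called. Its strongest, 3.7 kb past the gene's end, was nearly level after centring, with 13.1 and 13.2 at P0 and 10.3 and 12.0 at P8 (0.03 ± 0.17, adjusted p = 0.923 by limma). The nearest to a call lay 36.1 kb past the end, with 6.24 and 4.58 at P0 and 6.54 and 7.11 at P8 (0.62 ± 0.19, adjusted p = 0.052), and it was called higher with summit pileup over library background (1.04, adjusted p = 0.0084). Beside it, at 35.8 kb, stood another of the 4 sites with peaks in both P8 libraries alone (3.42 and 4.84).

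Of the called sites, the one upstream of Il1rl1 had the largest centred difference in fold enrichment, though not without centring or with summit pileup. This site, chr1:40400699-40401261, 3.6 kb before the annotated gene and 28.3 kb from the nearest start in the promoter table, had 7.86 and 4.12 at P0 and 9.65 and 11.2 at P8 and was called higher (1.14 ± 0.24, adjusted p = 0.015 by limma). The P0 libraries differed from each other there, and the difference was 0.63 without P0 library B and no longer called. Sites 11.2 kb and 45.6 kb before the gene, the second within Il1rl2, had differences of 0.45 and 0.48 that did not pass (adjusted p = 0.115 and 0.098). Both were called higher with summit pileup over library background (0.64 and 0.89, adjusted p = 0.030 and 0.0094 by limma), as were 12.4% of all fitted sites. Past the gene's end the pattern was different: at 3.5 kb and 19.2 kb, both nearest to Il18r1, another receptor of the interleukin-1 family, sites were open in both libraries at P0 and in neither at P8 (7.55 and 6.29, and 4.97 and 4.58).

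Ptgs2 was the gene with the most sites called higher at P8, 2 of its 5 fitted sites. Directly past the gene's end, at chr1:150108478-150109646, fold enrichment increased from 5.40 and 5.53 at P0 to 8.89 and 7.94 at P8 (0.89 ± 0.18, adjusted p = 0.013 by limma), and summit pileup over library background differed by 2.19 on the log2 scale. The summits there held 22 and 15 tags at P0 and 55 and 52 at P8, the highest of any called site. A weaker site 22.0 kb past the end rose from 3.73 and 4.12 to 4.94 and 6.08 (0.76 ± 0.17, adjusted p = 0.020) and was not called without centring. Next to it, at 22.5 kb, both P8 libraries had a peak (4.45 and 5.18) and neither P0 library did. The site 7.1 kb past the end, the strongest of the gene at P0, did not change detectably (12.5 and 10.6 at P0, 8.47 and 10.9 at P8, difference 0.01 ± 0.18).

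Nfkbia and Csf1 had no called site among their 7 and 9 fitted sites. With summit pileup over library background, 1 site of each was called, at Nfkbia 24.2 kb past the end (0.83 higher, adjusted p = 0.014) and at Csf1 9.1 kb before the start (-0.66, adjusted p = 0.025). At Nfkbia the centred fold enrichment differences ran from -0.11 to 0.31. The gene had 4 sites with peaks in both P0 libraries alone, the strongest 10.4 kb past its end (7.40 and 9.51), and 1 with peaks in both P8 libraries alone, 22.3 kb past it (3.43 and 3.29). At Csf1 the differences ran from -0.20 to 0.27. Csf1 had the most sites of the listed genes (26), and 6 of them had the P0 pattern. Cxcl2 had it at 5 of 17 sites, and 16.7% of the background sites had it. The 6 include one 27.4 kb before the Csf1 start (8.51 and 10.3) and one 6.3 kb before it (6.39 and 8.06). They also include a weak one 0.2 kb past the end (2.59 and 2.68). The Csf1 sites 44.1 kb and 34.5 kb past the end, nearest to Ahcyl1, were its strongest and were open in all libraries (12.3 and 14.3 at P0 with 10.4 and 9.38 at P8, and 12.8 and 13.4 with 8.90 and 10.0).

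The 7 called sites kept their direction without centring, with quantile normalization and with summit pileup over library background, but the calls rest on few libraries. Without P0 library B, 0 sites were called higher and 0 lower (0.197% and 0.131% of all fitted sites), and without P0 library A 1 was higher and 0 lower (1.88% and 0.804%). Without P8 library B the centred differences of the 7 sites ran from -0.65 to 1.07, and without P8 library A from -1.20 to 1.20, each site keeping its sign. Calls were also lost without P8 library B, at the Cxcl5 and Cxcl12 sites called lower and at the Cxcl1 and weaker Ptgs2 sites called higher. Summits at the called sites held 7 to 55 tags.

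Other genes of the same pathways were counted in the same way. Of 72 genes in 7 lists, 71 were found, and 427 of their 1102 sites could be fitted. Of these, 24 were higher at P8 (5.62%) and 7 lower (1.64%), against 5.87% and 3.29% of all fitted sites. Peaks in both P0 libraries alone made up 14.6% of the 1102 sites and peaks in both P8 libraries alone 1.18%. A peak near a TSS, or near either gene end where no TSS was matched, was present in all libraries for 45 genes and in none for 14. Only at Bcl3, a nuclear IkappaB protein, did both libraries of one passage (P0) and neither of the other have such a peak. The share of all genes with such a peak was not counted.

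Among genes of the IL-6 family, 11 of 104 fitted sites were higher at P8 (10.6%) and 1 lower (0.962%), against 5.87% and 3.29% of all fitted sites. A site 23.9 kb from Socs3, the feedback inhibitor of Il6st signalling, rose from 5.43 and 4.35 to 7.25 and 7.78 (0.90 ± 0.18, adjusted p = 0.012 by limma). Sites 16.4 kb from Il6st and 19.4 kb from Il11 rose by 0.99 and 0.81 (adjusted p = 0.023 and 0.025), and at Il6ra, the Il6 receptor, a site within the gene was lower by -0.62 (adjusted p = 0.045) while 3 others within the window were higher, that with the smallest adjusted p by 0.66 (adjusted p = 0.030). Of the IL-1 family, 3 of 46 sites were higher (6.52%) and 1 lower (2.17%), and 1 of the 3 is the Il1rl1 site described above. A site between the interleukin-1 genes, 20.5 kb from Il1a and 33.5 kb from Il1b, rose from 5.80 and 4.58 to 7.91 and 12.2 (1.20 ± 0.20, adjusted p = 0.0081), and a site within the decoy receptor Il1r2 rose by 0.95 (adjusted p = 0.014). At Il33, the ligand of Il1rl1, a site within the gene was lower, with 15.3 and 13.7 at P0 and 7.42 and 7.58 at P8 (-0.68 ± 0.17, adjusted p = 0.028).

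Of the NF-kappaB genes, 4 of 106 fitted sites were higher (3.77%) and 2 lower (1.89%), against 5.87% and 3.29% of all fitted sites. Those near Ikbkb (38.4 kb), Tnfrsf1a (30.3 kb) and Nfkb1 (11.2 kb) were higher at P8 by 1.25, 0.93 and 0.68, and those near Nfkbib (31.4 kb) and Nfkb2 (44.3 kb) were lower by -0.85 and -0.84. Another site 29.9 kb from Nfkbib was higher by 0.67 (adjusted p = 0.030 by limma). Of the CXC receptor genes, 2 of 23 sites were higher (8.70%), near Cxcr6 (0.70) and Cxcr5 (0.62), and 1 was lower (4.35%). The lower site lay 29.6 kb from Cxcr4, the receptor of Cxcl12 (10.9 and 12.0 at P0, 5.44 and 6.06 at P8, -0.72 ± 0.17, adjusted p = 0.022 by limma). Of the other CXC ligand genes, 1 of 34 sites was higher (2.94%) and 2 lower (5.88%). The Pf4 site above and the site outside Cxcl5 are 2 of these 3, and the other lay 49.0 kb from Cxcl17 (-0.70). Of the colony-stimulating factor genes, 3 of 37 sites were higher (8.11%), near Csf3r (0.76), Il34 (0.78) and Csf3 (0.72), and none was lower. None of 77 prostaglandin sites was called.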

How the data were processed

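ATAC-seq was measured in 4 libraries of mouse chondrocytes, 2 at P0 and 2 at P8. According to the methods and the submitters' processing notes, the authors aligned reads with Bowtie2 to mm10 and called peaks per library with MACS2, versions not given in the sources used here. For every peak the authors deposited the summit pileup (a signal in tags, not scaled for depth), the fold enrichment over local background (a ratio), and −log10 p and q values. A further table that the authors deposited holds the authors' DiffBind comparison of the passages and was not used, so the tests here differ from theirs.

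Peak names gave the library of each peak but no replicate number, so libraries were called A and B in each passage. Peaks on other contigs (4641, 1.02%) were left out, and peaks that overlapped by at least 1 bp were merged into sites. The value of a site in a library was its highest peak. Log2 fold enrichment at sites with a peak in all libraries was centred on each library's median and tested with limma 3.58.1 (R 4.3.3) with Benjamini-Hochberg adjustment. The SE and p-values are moderated, with each site's variance drawn toward that of all fitted sites. In simulated data for this comparison, with 200 of 55294 sites changed (5060 were called in the real data), limma recovered 0% at a log2 change of 1, 85% at 1.5 and 93.5% at 2. The simulated spread was drawn anew for every value and not for every site. These shares are therefore not the power of the real test, in which changes below 1 were called (-0.66 at Cxcl12). Gene positions and promoters were taken from RefSeq (GRCm38.p6). All listed genes were named. Of other pathway genes, up to 3 per list and direction with the smallest adjusted p were named, and those with a start peak in both libraries of 1 passage only. For these genes and the markers, a start peak lay within 1 kb of a TSS or, where none was matched, of either gene end. The members and lists were chosen with earlier results of these data known. Alternatives were matched depth, a fold enrichment minimum of 5, merging within 100 bp, windows of 10 and 100 kb, other scalings and leaving out each library.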

Additional observations from a re-analysis of the deposited data

How the results depend on the processing

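No paired analysis was possible because the peak names carry no replicate numbers. The counts below are of sites or genes. Sites open at P0 alone, in both libraries (24), numbered 13 within 10 kb. Sites open at P8 alone, in both libraries (4), numbered 1 at a fold enrichment of at least 5, 1 within 10 kb and 8 within 100 kb. Sites lower at P8 by limma (2) numbered 5 without centring, 4 with summit pileup over library background and 0 within 10 kb, and sites higher at P8 (5) numbered 2, 12 and 2 in those settings, 3 with quantile normalization and 8 within 100 kb. Over all fitted sites the share called higher and lower was 0.901% and 9.23% without centring, 1.61% and 1.97% with quantile normalization and 12.4% and 6.73% with pileup. Genes with more peaks in both P0 libraries (5) numbered 1 per 100000 peaks and 8 within 10 kb, and genes with more peaks in both P8 libraries (0) numbered 1 at a fold enrichment of at least 5 and 1 per 100000 peaks. Leaving out a library in turn gave 26 to 46 sites of the P0 pattern and 5 to 15 of the P8 pattern. It gave 5 to 8 genes with more peaks at P0 and 0 to 2 with more at P8. With a library fewer each pattern asks less, so these counts could rise but not fall. For these peak patterns, the shares of all sites or genes were not counted in any setting other than the main one. In the limma fits without a library, described above for the called sites, a lone library was assumed to vary like the others. The call higher at P8 was lost without centring at Il1rl1 (0.87), at the Ptgs2 site 22.0 kb past the gene (0.48) and at the Cxcl1 site (0.56), and the last 2 also with quantile normalization. Merging peaks within 100 bp reversed the Cxcl1 site (-0.33), since it then joined its stronger neighbour. Apart from where the alternative itself has fewer or other peaks, the cause was not tested. Depth limits which weak peaks were called: at the lowest local background none was called below a fold enrichment of 3.46 (library A) or 3.54 (library B) at P8.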
